A study of Mus musculus with 2 samples.

Results

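The 9 genes described here carry the retinoic acid pathway from the uptake of retinol to the nuclear receptors: Stra6, Aldh1a1, Aldh1a2, Aldh1a3, Cyp26b1, Rara, Rarb, Rarg and Rxra. They were chosen by name from 21938 protein-coding genes of the GENCODE annotation of mm10, with earlier results of these data known. Their DNA was followed in DNase-seq maps, which record where DNase I cuts chromatin, and cuts gather where nucleosomes are displaced, as at active promoters and enhancers. The tissue was given as lung tissue of newborn mice (postnatal, 0 day) of the strain given as B6NCrl. No genotype, transgene or treatment was listed, sex was not collected, and the series held 1 group of 2 biological replicates. The replicates are separate biosamples filed under the same donor entry. Nothing says whether they came from different animals or from pools, so the spread between them may be technical. Replicate 1 lists 2 sequencing instruments (a HiSeq and a NextSeq model) and replicate 2 names none.

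Retinol enters cells through the membrane transporter STRA6, is oxidised to retinaldehyde by retinol dehydrogenases, and is converted to retinoic acid by the ALDH1A enzymes, while CYP26 enzymes degrade it. Retinoic acid binds the receptors RARα, RARβ and RARγ, which sit on DNA as heterodimers with an RXR at repeated copies of a short hexamer. In the lung the pathway is known for its part in the outgrowth of the lung bud and, around birth, in the division of the saccules into alveoli.

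For each replicate the authors gave a list of peaks, each 150 bp wide with a score, and a list of hotspots, the wider regions of raised cutting. The score is a whole number from 2 to 150 in replicate 1 and from 1 to 148 in replicate 2. Its meaning was not stated. It was used to rank peaks within a list and, as a description, to set a site against all shared sites in the ratio of replicate 1 to replicate 2. The scale may differ between the lists, and no score exceeds the peak width of 150, so that ratios of high scores have little room to differ from 1. Overlapping peaks, by at least 1 bp, were joined across the replicates. The joined intervals are called sites, and a site is shared if it holds peaks of both replicates. Of 290376 sites in the genome, 161051 (55.5%) were shared. In this text, scores in parentheses are those of replicate 1 and then replicate 2. A promoter site is one that reaches to within 500 bp of a transcription start site (TSS) annotated for the gene, and a distal site is one whose centre is more than 1000 bp from every TSS and that lies within 50 kb of the gene body. In bulk tissue, a low score from few cells with an accessible site cannot be told apart from weaker accessibility in many cells. Promoters that mark lung cells carried a shared site in 10 of 10 genes, including the surfactant gene Sftpc (94 and 65), the mesenchymal gene Tcf21 (125 and 89) and the endothelial gene Kdr (95 and 76). Of 6 genes of liver, pancreas and skeletal muscle, 1 did, the liver gene Alb (36 and 40). The muscle gene Acta1 had a promoter peak in replicate 1 only. Among all protein-coding genes 68.5% had a shared promoter site. Ranked in deciles of CpG number at the 5′ end, these 6 genes lay in deciles of which 42.3% or 56.5% of genes did. The 10 lung genes lay in deciles of 56.5% to 96.9%, so the sets were not matched for CpG.

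A set of 5 sequences shows what the accessible DNA at these genes looked like. All were read from the RefSeq copy of GRCm38 (mm10) and run 5′ to 3′ on the strand of the gene. The first is shown because it is the only direct repeat of receptor hexamers with 1, 2 or 5 bases between them at a shared site of any of the 9 genes. It lies in the Rarb promoter at chr14:16575506-16575535 (minus strand), and capitals mark the hexamers, GGTTCA and AGTTCA, 5 bases apart.
Rarb repeat: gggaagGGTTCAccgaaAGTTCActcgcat
The next is the strongest promoter site of the 9 genes, upstream of the Rara start at chr11:98937516-98937665 (plus strand). Capitals mark 3 matches to GGGCGG or its complement CCGCCC, the core that SP and KLF factors bind.
Rara promoter: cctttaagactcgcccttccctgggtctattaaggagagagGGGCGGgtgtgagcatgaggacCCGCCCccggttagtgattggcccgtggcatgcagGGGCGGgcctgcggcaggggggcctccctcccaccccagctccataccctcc
The site with the highest ranks among those nearest to their own gene lies in Rarg at chr15:102247056-102247225 (minus strand). Capitals mark a CCGCCC, a single receptor hexamer AGTTCA and a GGAATG, the core that TEAD factors bind.
Rarg intron: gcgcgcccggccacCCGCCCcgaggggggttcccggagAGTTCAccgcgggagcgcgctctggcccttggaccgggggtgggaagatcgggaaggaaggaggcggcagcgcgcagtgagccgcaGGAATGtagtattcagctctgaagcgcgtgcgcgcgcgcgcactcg
The strongest site of the breakdown gene Cyp26b1 lies in an intron at chr6:84583476-84583625 (minus strand), with 3 SP/KLF cores and 1 hexamer on the opposite strand (TGAACT) in capitals.
Cyp26b1 intron: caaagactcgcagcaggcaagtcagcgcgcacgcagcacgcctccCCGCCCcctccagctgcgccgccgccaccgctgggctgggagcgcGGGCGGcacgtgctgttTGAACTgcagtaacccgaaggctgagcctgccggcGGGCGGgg
The strongest site of Aldh1a1 by mean percentile over the lists, at chr19:20600076-20600245 (plus strand), is shown for contrast in base composition. Its capitals mark 1 hexamer on the opposite strand (TGAACC).
Aldh1a1 intron: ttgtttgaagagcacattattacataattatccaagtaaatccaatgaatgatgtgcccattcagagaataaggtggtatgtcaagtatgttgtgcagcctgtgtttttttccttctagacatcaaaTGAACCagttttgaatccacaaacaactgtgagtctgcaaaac
The Rarg and Cyp26b1 sites were 72.4% and 73.3% G or C with 24 and 18 CpG dinucleotides, whereas the Aldh1a1 site was 35.9% G or C with 0 CpG.

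All 9 genes carried a shared promoter site in the newborn lung, and all 9 also had a promoter peak in each list taken alone. Among protein-coding genes, 68.5% had a shared promoter site, 72.3% a promoter peak in replicate 1 and 69.2% a promoter peak in replicate 2. Within the set, the receptor genes held the strongest promoter sites and Stra6 the weakest. Of all protein-coding genes with a shared promoter site, 85.7% had a weaker strongest one than Rara. For Rxra it was 47.5%, for Rarg 46.7% and for Rarb 34.4%. For each gene the strongest promoter site was the one with the highest mean percentile over the lists. Those sites had a median score of 98 in replicate 1 and 83 in replicate 2 over the 9 genes, below the 121 and 101 over all protein-coding genes with such a site. The 9 genes have 55 distinct annotated TSS positions, from 1 in Aldh1a2 to 12 in Stra6, and a gene with more starts has more chances to be counted. No test was made between genes, since 2 libraries of 1 group give no contrast and the sites of a gene are not replicates.

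**Figure D1:**
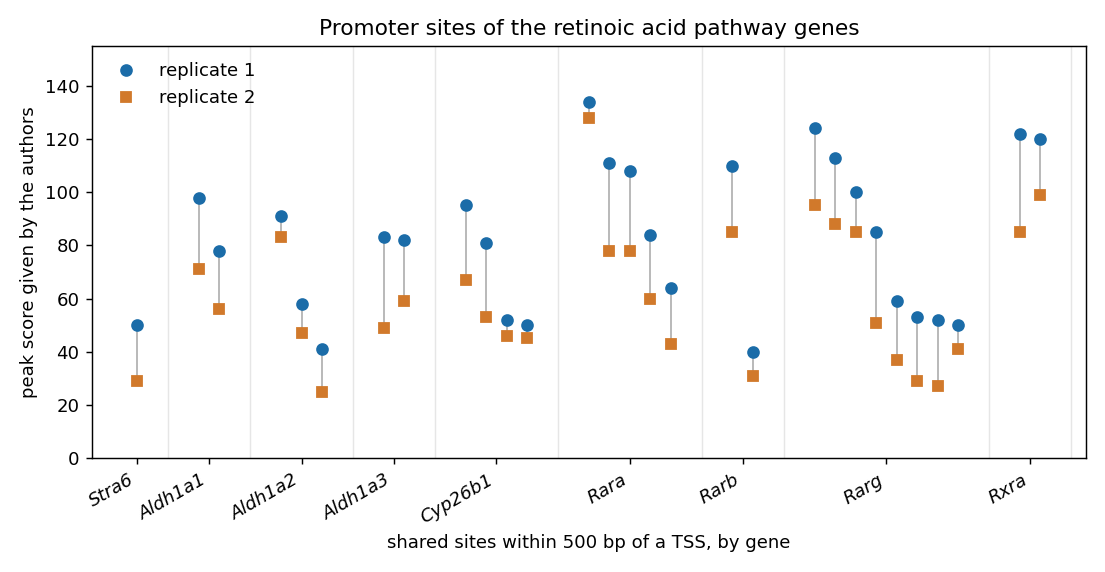
Authors' peak score (vertical axis) of each shared promoter site of the 9 genes, grouped by gene along the horizontal axis and sorted by the score in replicate 1, with circles for replicate 1 and squares for replicate 2 joined by a line. The single Stra6 site (50 and 29) lies low, the top Rara site (134 and 128) lies highest, and replicate 1 is above replicate 2 at each of the 29 sites.

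Stra6, the retinol transporter (chr9:58063788-58153996, plus strand, 90.2 kb), had the least accessible promoter of the set. Its only shared promoter site, chr9:58128696-58128885, scored 50 in replicate 1 and 29 in replicate 2. Of the protein-coding genes with a shared promoter site, 3.87% had a weaker one. The site reached to within 500 bp of 2 of 12 TSS positions, those of Stra6-202 and Stra6-201, which lie 203 and 464 bp from it. At Stra6-201 only its replicate 1 peak came that near, and replicate 2 had no peak or hotspot within 500 bp. The most distant 5′ starts, Stra6-210, Stra6-208 and Stra6-203, had no peak and no hotspot within 500 bp in either replicate. A weak peak of replicate 2 alone (25), at chr9:58134116-58134265, lay near 4 further TSS positions, where replicate 1 had no hotspot.

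The 3 enzymes that make retinoic acid differed in base composition at their starts and little in score. Aldh1a1 (chr19:20492715-20643465, plus strand, 151 kb) had shared sites at all 5 of its TSS positions although these had only 9 CpG within 500 bp. Its upstream site, chr19:20492556-20492705, scored 78 and 56. Its inner site, chr19:20601836-20602005 at the start of Aldh1a1-201, scored 98 and 71. In each replicate the inner site was thus the higher of the pair, and 24.6% of genes with a shared promoter site had a weaker one. The strongest Aldh1a1 site by mean percentile, printed above, lies 1716 bp upstream of that inner start (106 and 68). Its mean percentile was 86.0 against 85.7 for the inner site, and in replicate 2 it scored below the inner site.

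Aldh1a2, the main producer of retinoic acid in the embryonic mesoderm (chr9:71215789-71296243, plus strand, 80.5 kb), has a single annotated start with 118 CpG within 500 bp. A row of 3 shared sites spanned that start. The strongest, chr9:71215256-71215425, lay 364 bp upstream and scored 91 and 83. The site at the start itself scored 58 and 47, and that 227 bp downstream scored 41 and 25. Accessibility thus scored highest upstream of the start in both replicates, and 26.6% of genes with a shared promoter site had a weaker strongest site.

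Aldh1a3 (chr7:66390890-66427517, minus strand, 36.6 kb) had shared sites at 2 of 5 TSS positions. The site at its 5′ start, chr7:66427456-66427625, scored 82 and 59. The site at the inner noncoding start Aldh1a3-202, chr7:66406116-66406285, scored 83 and 49. The pair were within 1 unit of each other in replicate 1 and 10 units apart in replicate 2, and 17.3% of genes with a shared promoter site had a weaker one. The starts of Aldh1a3-203, Aldh1a3-204 and Aldh1a3-205 between them had no peak or hotspot in either replicate.

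Cyp26b1, which degrades retinoic acid (chr6:84571414-84593908, minus strand, 22.5 kb), was accessible at its inner starts and not at its annotated 5′ end. The starts of Cyp26b1-201 and Cyp26b1-202 had no peak and no hotspot in either replicate, and the nearest shared site was 3201 and 3363 bp away. A cluster of 4 shared sites covered the inner starts. The strongest, chr6:84588976-84589125, scored 95 and 67. That at chr6:84587596-84587765, over the start of Cyp26b1-205, scored 81 and 53. The remaining pair scored 52 and 46 and 50 and 45. The order of the cluster was the same in both replicates. The inner starts have 58 to 67 CpG within 500 bp and the 5′ ones without peaks 16 and 18.

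Rara, the retinoic acid receptor α gene (chr11:98927818-98974942, plus strand, 47.1 kb), held the strongest promoter site of the set. The site upstream of the starts of Rara-204 and Rara-201, printed above, scored 134 in replicate 1 and 128 in replicate 2, and 85.7% of genes with a shared promoter site had a weaker one. A neighbour 433 bp upstream of Rara-204, chr11:98937096-98937265, scored 111 and 78. The inner start Rara-202 had a site of 108 and 78 with 75 CpG around the start. The start of Rara-205 had a site of 84 and 60, and the outermost start, Rara-203, one of 64 and 43. The adjacent starts of Rara-206 and Rara-207 had peaks in replicate 1 only (65 and 48, both in replicate 1), with hotspots in that replicate alone.

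Rarb, the receptor gene that retinoic acid itself is known to induce (chr14:16430839-16819156, minus strand, 388 kb), was accessible at its inner starts only. The site chr14:16575496-16575665 scored 110 and 85, and a second, chr14:16574896-16575085, scored 40 and 31. Between them they reached to within 500 bp of 5 of 7 TSS positions, including those of Rarb-201 and Rarb-202. The outer starts, Rarb-203 and Rarb-204, lie 243 kb upstream and had no peak and no hotspot in either replicate. RefSeq gives Rarb a still more distant start at position 17082331, which had none either. A further promoter peak, 149 bp from the start of Rarb-207, was called in replicate 1 only (36).

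**Figure D2:**
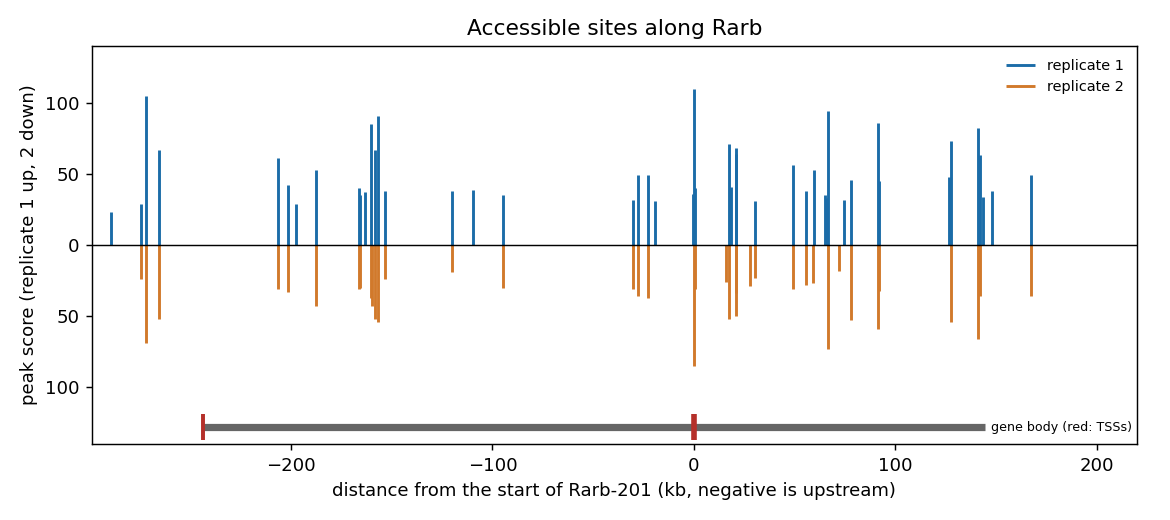
Authors' peak score (replicate 1 upward, replicate 2 downward) of all 53 sites within 50 kb of Rarb against distance from the start of Rarb-201 in kb, with the gene body as a grey bar and annotated TSSs in red. The tallest bars stand at the inner starts (110 and 85), none stands at the outer starts, and 14 shared distal sites lie between the start groups.

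The repeat in the Rarb promoter occupies positions 16575513 to 16575529, which is 37 to 53 bp upstream of the RefSeq start at 16575476. Against the GENCODE models it lies downstream of the Rarb-201 start (16575543) and upstream of the Rarb-202 start (16575472). Among all shared sites, 0.0851% held a repeat with 5 bases between the hexamers (a DR5), and 0.266% held a repeat with 1, 2 or 5 bases between. At the shared sites of the 9 genes the counts were 1 of 216 for each, the same Rarb site. Of the 137 shared sites with a DR5 in the genome, 9 lay within 500 bp of a TSS. The Rarb site outranked 127 of the 137 and was outranked by 9, and it alone carried these 17 bases. The DR5 sites as a whole had median scores of 66 and 45, against 67 and 46 for all shared sites. In the table of RefSeq promoters, which runs from 250 bases before to 50 after each start, a DR5 stood in 32 of 32851 entries (0.0974%). The Rarb entry was among them, and no entry of the 7 other genes in that table had a DR1, DR2 or DR5. The search took 4 forms of the hexamer (the canonical AGGTCA, the form GGTTCA, the form AGTTCA and the form GGGTCA), paired in the same orientation, on both strands, in the central 150 bp of a site. A match describes letters only and shows no binding.

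Rarg, the receptor γ gene (chr15:102234938-102257517, minus strand, 22.6 kb), had the most promoter sites of the set, with 8 at 5 of 7 TSS positions. The strongest, chr15:102246436-102246605 at the start of Rarg-202, scored 124 and 95. The site at the innermost start, Rarg-204, scored 113 and 88. At the 5′ end a pair of sites scored 100 and 85 and 85 and 51. The other 4 promoter sites scored 50 to 59 in replicate 1 and 27 to 41 in replicate 2. The starts of Rarg-206 and Rarg-207 had no peak or hotspot in either replicate.

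The strongest Rarg site fell just outside the promoter limit. It lies 556 bp upstream of the Rarg-202 start and scored 136 and 135, both near the upper bound of the score. Of the other sites near the 500 bp limit, an Aldh1a3 peak of replicate 1 only lay just inside at 499 bp (46) and a shared Rxra site just outside at 514 bp (72 and 59). A Rara peak of replicate 1 only lay at 544 bp (94). None of the 9 genes gained or lost its shared promoter site when the limit was set at 250 or 1000 bp.

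Rxra, which encodes the common heterodimer partner (chr2:27676440-27762957, plus strand, 86.5 kb), had shared sites at 2 of 6 TSS positions. The site upstream of its 5′ start, chr2:27676196-27676365, scored 122 and 85. The site at the noncoding inner start Rxra-205, chr2:27740356-27740525, scored 120 and 99. At the starts of Rxra-201 and Rxra-206, the most CpG-rich of all 55 (151 and 157 CpG within 500 bp), both replicates had peaks that did not overlap. The replicate 1 peak (103) lay between replicate 2 peaks of 81 and 62, with gaps of 30 and 10 bases, and both replicates had a hotspot there at the authors' cap of 100 in −log10 q. The count of shared sites therefore leaves out a start that was accessible in both libraries. The starts of Rxra-202 and Rxra-203 had no peak or hotspot in either replicate.

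Starts with a shared site had more CpG around them than starts without a peak. Of the 55 TSS positions, 30 had a shared site, 8 had peaks but none shared, and 17 had no peak in either replicate. Within 500 bp of the starts with a shared site the median CpG number was 49 (range 9 to 118), and around those with no peak it was 16 (5 to 30). The ranges overlap, and the lowest values among starts with a shared site are those of the 5 Aldh1a1 starts, with 9 CpG each. Of starts with a transcript typed as protein-coding 21 of 43 had a shared site. Of the other starts, of processed transcripts, retained introns or transcripts marked for nonsense-mediated decay, 9 of 12 did. Neighbouring starts share sites and sequence, so that these are not independent counts. The share over all annotated starts of the genome was not computed, so the counts have no background beside them.

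**Figure D3:**
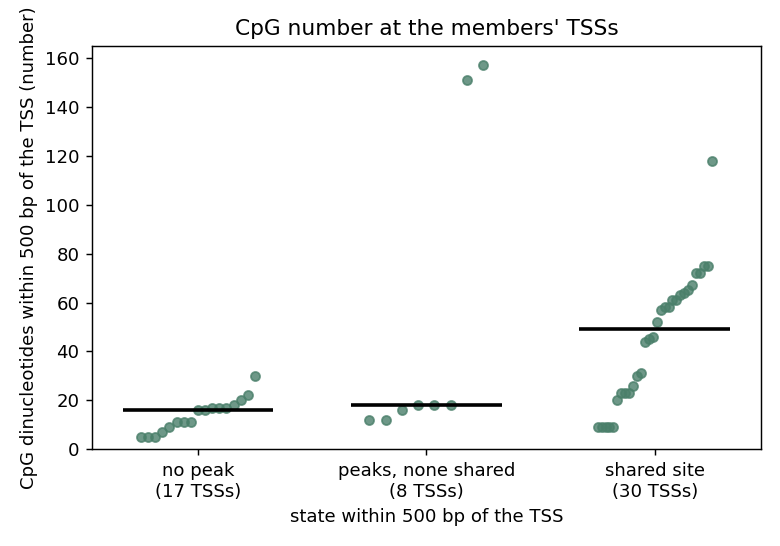
CpG dinucleotides within 500 bp of each of the 55 TSS positions (vertical axis), split along the horizontal axis by whether the position had no peak, peaks that were not shared, or a shared site; points are positions and bars medians. The medians are 16, 18 and 49, and the highest pair of points in the middle group are the Rxra-201 and Rxra-206 starts (151 and 157).

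Beyond the promoters, the 4 receptor genes, Aldh1a2 and Cyp26b1 had more shared distal sites than the median gene of their length decile. Aldh1a1, Aldh1a3 and Stra6 had fewer. Within 50 kb of the 9 gene bodies lay 376 sites, of which 216 (57.4%) were shared, 131 were found in replicate 1 only and 29 in replicate 2 only. Of the shared sites 154 were distal, 29 were promoter sites and 33 were neither, 25 of them nearest to a start of another gene. The mean number of shared distal sites was 17.1 per gene, against 9.35 over protein-coding genes, and the median 17 against 8. Replicate 1 alone gave 272 distal peaks and replicate 2 alone 177, and peaks above the median score of each list gave 93 shared distal sites. With sites counted only for the gene whose start was nearest, 114 of the 154 stayed with their gene.

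Rarb had 31 shared distal sites, where the median of its length decile is 19. Rara had 24 (decile median 10), Rxra 23 (12) and Rarg 17 (8). Aldh1a2 had 18 (12) and Cyp26b1 11 (8). Aldh1a1 had 11 where its decile median is 19, Stra6 11 where it is 12, and Aldh1a3 8 where it is 10. The longest decile holds both Rarb (388 kb) and Aldh1a1 (151 kb), so it does not match Rarb closely for length. Per 100 kb of gene body and flanks, Rara had 16.3, Rarg 13.9, Rxra 12.3, Aldh1a2 9.97 and Cyp26b1 8.98. Rarb had 6.35, nearer to Aldh1a3 (5.86), Stra6 (5.78) and Aldh1a1 (4.39) than to the other receptor genes. The order of the genes depended on the peaks counted. In replicate 1 alone the counts were 50 for Rara, 45 for Rarb, 44 for Rxra, 32 for Aldh1a2, 23 for Rarg, 23 for Stra6, 19 for Aldh1a1, 19 for Aldh1a3 and 17 for Cyp26b1. In replicate 2 alone Rarb had 36, Rara and Rxra 26 each, and the other 6 genes from 10 to 21. With peaks above the median score only, Rarb had 10 shared distal sites, fewer than Rara (22), Rxra (19) and Rarg (13). The decile medians were not recomputed for these counts. Only 4 of the 8 distal sites of Aldh1a3, 5 of the 11 of Stra6, 7 of the 17 of Rarg and 14 of the 24 of Rara were nearest to their own start. For Rarb it was 24 of 31 and for Aldh1a2 15 of 18, while all 23 of Rxra, all 11 of Aldh1a1 and all 11 of Cyp26b1 were. The Rara and Rarg windows are crowded with other genes, among them Cdc6, Top2a and Gjd3 near Rara and Itgb7, Espl1, Mfsd5 and Csad near Rarg.

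**Figure D4:**
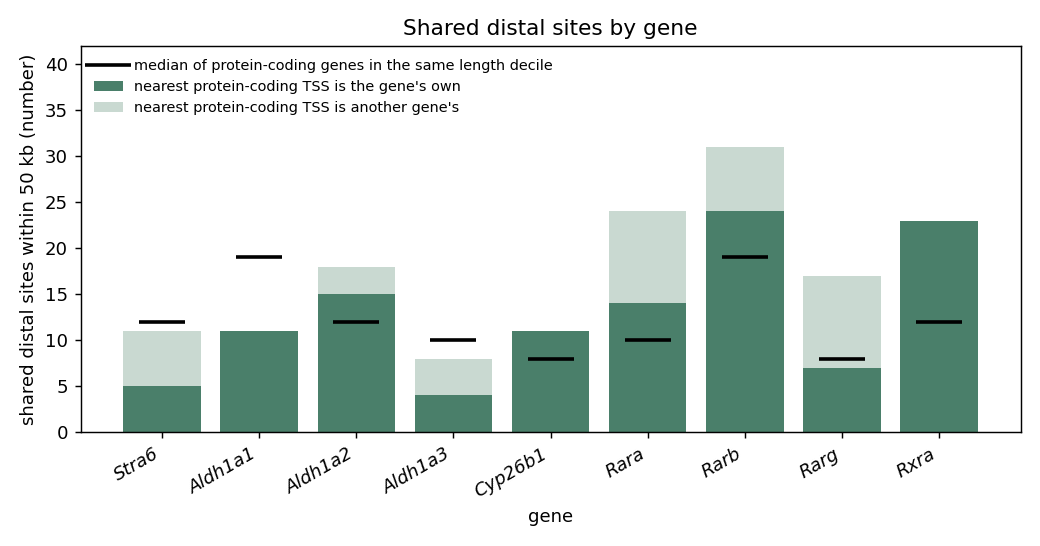
Number of shared distal sites within 50 kb of each gene (bars), dark where the nearest protein-coding TSS is the gene's own and pale where it is another gene's, with a black line at the median of protein-coding genes of the same length decile. Rarb (31), Rara (24), Rxra (23) and Rarg (17) stand above their lines, and Aldh1a1 (11), Stra6 (11) and Aldh1a3 (8) below.

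The strongest distal sites of Rara lay in its introns. They were at chr11:98942156-98942305 (126 and 114), chr11:98963776-98963925 (130 and 105) and chr11:98954496-98954665 (126 and 102), between 2.44 and 5.75 kb from a Rara start. Rara also had the highest median distal score, 95 and 72.5, where all distal sites of the genome had 63 and 43. The site with the highest score in its window, however, was the promoter of Cdc6, a DNA replication factor (142 and 130). Of the 9 genes, Rara had the least even hotspot width between replicates. Its hotspots covered 27.7 kb in replicate 1 and 11.4 kb in replicate 2, a ratio of 2.44 against 1.56 for the genome. Of its 70 sites, 32 were found in replicate 1 only and 1 in replicate 2 only. By the percentage of sites that were shared (52.9%), Rara was not the least even. That percentage was 46.9% for Aldh1a3, 49.1% for Rxra and 51.6% for Stra6, and 55.5% over the genome. The widest Rara hotspot, over the promoter printed above, spanned 2685 bp in replicate 1. In replicate 2 the hotspot over that promoter site spanned 384 bp, and the widest in the window, 1029 bp, lay at the promoter of Top2a.

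At Rarb the distal sites were many and weak, with median scores of 53 and 36, the lowest of the 9 genes. They fell on both sides of the inner starts, 14 between the inner and the outer starts and 13 between the inner starts and the 3′ end. The strongest, chr14:16847456-16847605 (105 and 69), lay outside the gene, 28.3 kb upstream of the outer start. The next, chr14:16508856-16509005 (94 and 73), lay in an intron, 66.0 kb downstream of an inner start, and the last of the top 3, chr14:16434536-16434685 (82 and 66), overlapped an exon near the 3′ end, where the nearest start is that of Top2b. The widest Rarb hotspots were 881 bp in replicate 1, at the inner starts, and 857 bp in replicate 2, at 83545 bp from the outer start.

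The strongest distal sites in the Rarg window were shared with its neighbours. The top one, chr15:102302636-102302805 (128 and 97), was nearest to Espl1, which encodes separase. The second, chr15:102247476-102247645 (115 and 89), lay in Rarg 976 bp from the Rarg-202 start at its nearer edge, beside the strongest Rarg site. The third, chr15:102224576-102224725 (106 and 88), was nearest to the integrin gene Itgb7. One hotspot over Rarg-202 and both intronic sites was the widest of the 9 genes, 2713 bp in replicate 1, and its counterpart in replicate 2, 1799 bp wide, did not reach the Rarg-202 start.

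The 3 strongest distal sites in the Rxra window were all nearest to Rxra itself. An intronic site at chr2:27758496-27758645 scored 120 and 110, the highest of any Rxra site by rank. Intergenic sites 31.9 and 34.2 kb from the last start, past the 3′ end, scored 122 and 101 and 127 and 82. The widest Rxra hotspots, 1647 bp and 1327 bp, covered the CpG-rich starts at the 5′ end.

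Among the enzymes, Aldh1a1 had its strongest distal sites 1716 bp from its inner start (106 and 68) and upstream of the gene, 42.9 kb (85 and 69) and 7.95 kb (86 and 68) away. For Aldh1a2, chr9:71188716-71188885 (86 and 80) and chr9:71189136-71189305 (73 and 65) stood side by side, 26.9 and 26.5 kb upstream, in an intron and nearest to the water channel gene Aqp9. A further Aldh1a2 site lay past the 3′ end (85 and 59). The 3 strongest distal sites of the Aldh1a3 window (114 and 100, 110 and 78, 100 and 73) were all nearest to the kinase gene Lrrk1. All 3 lay past the 3′ end of Aldh1a3, and each outscored its own promoter sites in both replicates. The widest hotspots of Aldh1a1 were 580 bp in replicate 1, within the gene, and 570 bp in replicate 2, at the inner start. Those of Aldh1a2, at its start, were 1036 and 725 bp, and those of Aldh1a3, upstream of the gene, were 767 and 587 bp.

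Cyp26b1 had its strongest site within the gene, the intronic one printed above (114 and 95), at 4055 bp from the nearest start. A second intronic site, chr6:84590396-84590545 (100 and 81), lay between the 5′ starts without peaks and the inner ones. Another, chr6:84640676-84640825 (79 and 59), lay 46.8 kb upstream under the widest Cyp26b1 hotspots, 976 bp and 782 bp. For Stra6 the strongest distal site, chr9:58038636-58038785 (99 and 89), was nearest to Ccdc33. Those within Stra6 scored 84 and 54 and 76 and 58. Each of these 3 exceeded the Stra6 promoter site in both replicates. The widest hotspots in the Stra6 window were 521 bp in replicate 1, past the 3′ end, and 499 bp in replicate 2, over the site nearest to Ccdc33.

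Scores at these genes were higher in replicate 1 nearly throughout, by the same offset as in the rest of the genome. At 211 of the 216 shared sites the score was higher in replicate 1, and at 5 in replicate 2. The median log2 ratio of replicate 1 to replicate 2 was 0.44, the same as over all shared sites of the genome (0.44, with 0.03 and 0.96 at the 5th and 95th percentiles). Against those limits 6 sites lay below and 8 above. The most uneven toward replicate 1 was an intronic site upstream of Cyp26b1 (68 and 24, log2 ratio 1.50), followed by one in Rarg (78 and 31, 1.33) and one upstream of Rara nearest to Cdc6 (99 and 41, 1.27). The 5 sites higher in replicate 2 had scores of at most 53. Sites of replicate 1 alone had a median score of 43 and those of replicate 2 alone 30. Of the 29 in replicate 2 alone, 10 lay within a hotspot of replicate 1. Depth was not given, so what part of the unshared sites reflects depth was not tested.

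**Figure D5:**
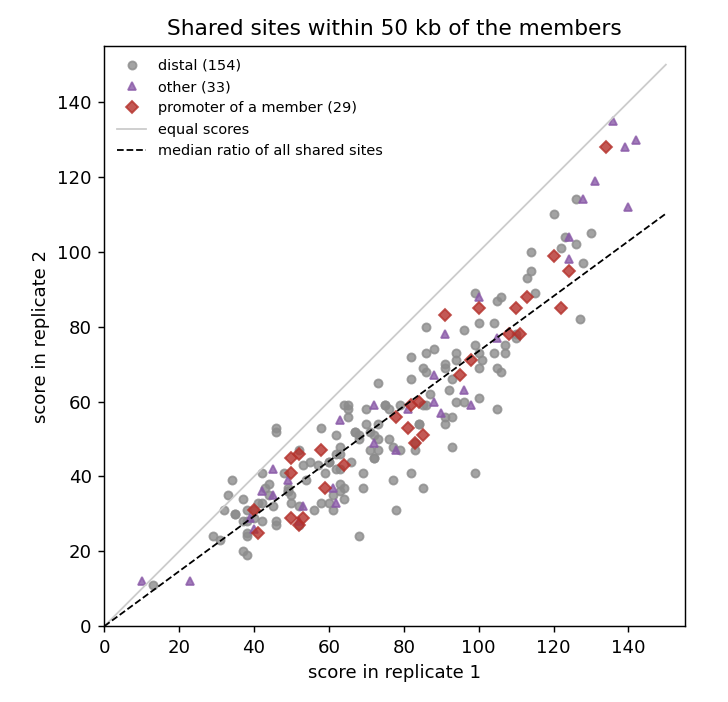
Scores of the 216 shared sites in replicate 1 (horizontal axis) and replicate 2 (vertical axis), as promoter sites of the 9 genes (29), distal sites (154) and others (33). The solid line marks equal scores and the dashed line the median ratio of all shared sites; 211 points lie below the solid line.

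The sequence content of the sites was close to that of the genome's shared sites. The Rarb repeat stood at 1 of 216 sites, too few to set apart from the 0.0851% of all shared sites with a DR5. A single receptor hexamer stood in 25.5% of the 216 sites and 26.2% of all. AP-1 sites (TGACTCA or TGAGTCA) stood in 7.41% against 7.13%, CTCF matches in 7.41% against 7.22%, GGGCGG in 12.5% against 12.6% and GGAATG in 11.6% against 11.7%. The forkhead words TGTTTAC and TGTTTGC were in 6.02% against 8.14%, and the NKX2 words CACTTGA and CTCAAG in 11.1% against 13.3%. The word for GATA factors, AGATAA, stood in 5.56% against 6.25%, and the word for ETS factors, CCGGAA, in 4.63% against 5.17%. The glucocorticoid receptor match stood in 2 sites (0.926% against 0.632%) and the NFI match in 0 (against 0.101%). Some of these words overlap others in the same window, and no test was made. When hexamers ending in GA were also allowed, a choice made after the data were seen, a second site gained a repeat, with 2 bases between, in the Rxra-205 promoter site.

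A list of 42 other retinoid genes was chosen by name, with earlier results of these data known. Of these, 35 (83.3%) had a shared promoter site, against 68.5% of protein-coding genes. All 9 coregulators had one, with median strongest scores of 130 and 111, as did the receptors Rxrb, Rxrg and Ppard, 10 of 11 known target genes, 7 of 11 further genes of synthesis and breakdown, and 6 of 8 of transport and storage. The highest ranks were those of Ppard, a nuclear receptor known for its response to fatty acids (139 and 123), the corepressor Nrip1 (134 and 128), the coactivator Ncoa2 (132 and 125), and the dehydrogenases Dhrs3 (139 and 117) and Rdh5 (136 and 115). Rdh10, the retinol dehydrogenase that supplies the ALDH1A enzymes, had a site of 126 and 89.

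Within this list 5 genes had no promoter peak in either replicate, among them Bco1, Cyp26a1, Cyp26c1 and Stra8. Of the 3 CYP26 enzymes, therefore, only Cyp26b1 had promoter peaks here, and these were at its inner starts. Cyp26a1 lay in a CpG decile of which 96.4% of genes had a shared promoter site, and Cyp26c1 in one of which 79.6% did. Crabp1 and Adh7 had a promoter peak in replicate 1 only.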

How the data were processed

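DNase-seq of newborn lung (2 libraries) was analysed from the authors' deposited files. Per the labels, the authors called peaks and hotspots on mm10. Neither an aligner nor a peak caller is given in the sources used here. Deposited peaks carry a score whose meaning is not stated, and the deposited hotspots a −log10 q-value, at least 1.30 and capped at 100. Depth is unknown, so no value was scaled by it and no interval could be given.

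Intervals on chromosomes 1 to 19, X and Y were used, with Python 3.11, pandas 2.3.3 and numpy 2.4.6. Peaks were merged as the report describes. Starts came from GENCODE M21, sequence and further starts from RefSeq on GRCm38. The mean percentile of a site is that of its scores among all peaks of each list. Genes were ranked in deciles of length or of CpG number at the 5′ end. Site and motif counting was tested on simulated data with known answers and recovered them.

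Named were all 9 genes with their promoter sites, 3 distal sites and widest hotspots, and, of the 42 other retinoid genes, those without a promoter peak and the 5 of highest rank. An item that this rule names is not reported here. Rdh10, the genes with a peak in replicate 1 only, the neighbours and the least even sites were added after their values were seen. Members and lists were chosen with earlier results of these data known. No test between groups was possible with 1 group. The alternatives varied overlap, score, promoter width, starts, gene bounds, window, assignment, interval type, hexamers and replicates.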

Additional observations from a re-analysis of the deposited data

How the results depend on the processing

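Of the results over all 9 genes or the lists, 49 values under an alternative stayed within 1.5 times, or within the replicate spread, of the value reported, and 11 did not. Of the distal counts of single genes, 57 stayed within 1.5 times and 24 did not, of which 7 were those without replicate 2 and 6 those with peaks above the median score. All 9 genes kept a shared promoter site under each alternative except 2. With peaks above the median score only, Stra6 lost it, and with the 5′ end of the gene model as the only start, Rarb, Cyp26b1 and Stra6 did. The latter fall, from 9 genes to 6, is exactly 1.5 times and so is counted among the 49. Of the 21938 protein-coding genes, 15032 had a shared promoter site in the main setting. With peaks above the median score only, 13590 did, and with the 5′ end as the only start, 13810 did. The median percentile of the strongest promoter site was 87.6 and became 81.9 at the 5′ ends, over the 6 genes that had one there. Peaks above the median score gave 134 shared sites, 93 of them distal, and a median of 7 distal sites per gene. That median was 9 within 10 kb of the gene body, 11 by nearest start and 10 with distal set at over 2500 bp. The peaks of a single replicate gave 249 to 354 sites, 177 to 272 distal sites and a median of 21 to 23 per gene. The higher value came without replicate 2 in each case. Sites with a direct repeat numbered 1. They numbered 0 with AGGTCA and GGTTCA only, and 2 with 8 hexamers, an alternative added after the data were seen. The cause of these shifts was not tested, apart from those that follow from counting fewer peaks or starts.

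No paired analysis was possible because the series has 1 group. Unknown depth and an undocumented score limit every ranking given.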
